A study of Mus musculus with 6 samples.

Results

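The 10 genes described here encode the receptors for the B cell survival factor BAFF and BAFF itself. They also encode cytoplasmic proteins that restrain or drive the alternative NF-κB pathway. The genes were picked by symbol: Tnfrsf13b, Tnfrsf13c, Tnfsf13b, Traf1, Traf2, Traf3, Map3k14, Birc2, Birc3 and Chuk. All 10 had a row among the 14864 genes of the deposited table, and all 10 passed the filter on low values (a mean of at least 10 over the 6 libraries). RNA came from marginal zone B cells, which lie at the edge of the splenic white pulp, flow-sorted from C57BL/6 mice aged 8 weeks. There were 3 libraries labelled WT and 3 labelled cKO, the latter from mice with a conditional knockout of CK2α, a catalytic subunit of protein kinase CK2 that Csnk2a1 encodes. The sources used here do not give the Cre driver, the deleted exons, the sort gates or the number of mice per library, so p-values measure a spread among libraries that may be partly technical.

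BAFF binds BAFF-R and TACI on B cells and keeps mature B cells alive, marginal zone cells among them. In the absence of ligand, an adaptor complex of TRAF3, TRAF2 and the cellular inhibitors of apoptosis cIAP1 and cIAP2 ubiquitinates the kinase NIK, so that NIK is degraded as it is made. When the receptor is engaged TRAF3 is lost from this complex, NIK accumulates and activates IKKα, and the Nfkb2 precursor is processed to a subunit that enters the nucleus with RelB. Much of this control acts on protein stability, which RNA counts do not measure.

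Read counts recovered from the table came to 18778776 to 23503756 per library. The 8 B cell markers summed to 335420 to 350390 normalised reads in WT and 315970 to 328170 in cKO, with no overlap. Of the 9 T cell markers 6, among them Cd3e, Cd3d, Cd3g and Trac, had no row in the table. The 3 with a row were low. Cd4 gave means of 23.0 in WT and 13.3 in cKO, Cd8a 18.2 and 7.86, and Il7r 10.1 and 19.0. None of these passed the test given below. Csnk2a1, the gene targeted, had 3957 ± 105 normalised reads in WT and 4045 ± 87.6 in the libraries labelled cKO (SD, n = 3), so its total was no lower there, and a count over the whole gene does not resolve a deleted exon. Some libraries stood apart. WT replicate 2 and cKO replicate 1 had the highest sums of the 7 erythroid and platelet genes (11119 and 5019, against 680 to 1399 in the other libraries) and of 12 monocyte and macrophage genes (3196 and 2990, against 1612 to 1963). In cKO replicate 2 the 6 follicular B cell markers summed to 52320, inside the WT range of 48934 to 54138, whereas the other cKO libraries had 38117 and 38309.

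Of the 10 genes, 1 rose, 0 fell and 9 did not pass the test in cKO against WT. The test was limma on log2(normalised count + 1), with Benjamini-Hochberg adjustment over the 14855 genes tested and a threshold of 0.05. The gene that rose was Tnfsf13b, the BAFF gene itself, from a level of a few reads. Its WT mean of 3.35 lay under the filter's minimum of 10 and its cKO mean of 17.3 above it, so it was tested only through the group where it was high, and its count as a call supports nothing about the set. With no filter its adjusted p was 0.0435, and with a minimum mean of 50 it was not tested. Leaving out the filter cannot undo this selection, as it returned only 9 genes. No gene of the deposited table had fewer than 61 reads over the 6 libraries, and Tnfsf13b had 10 in WT and 53 in cKO. Birc3 lay just above the threshold. The share that passed, 10% of the members, stood beside 10.1% of all genes tested (5.08% higher and 4.97% lower in cKO). WT and cKO values were fully separate for Tnfsf13b, Birc3 and Traf2, 30% of the members, beside 31.6% of all genes. The median log2 difference of the members was 0.07, and that of all genes was -0.00086. In RNA from bulk cells, a lower value cannot be told apart from fewer cells of a type.

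**Figure D1:**
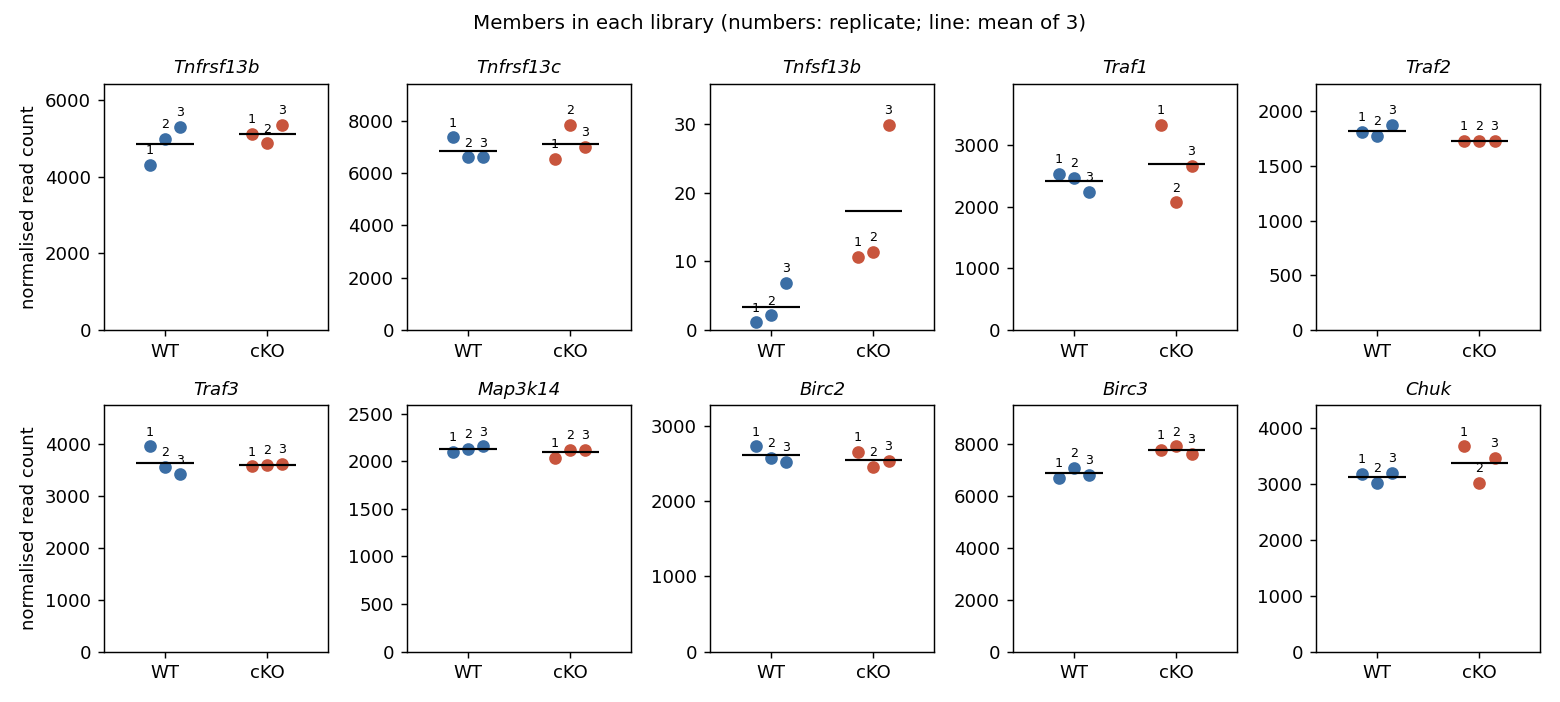
Normalised read count (vertical axis, from 0, a separate scale per gene) of each of the 10 genes in the 3 WT libraries (blue) and 3 cKO libraries (red), with replicate numbers above the points and the mean of 3 as a line. The groups are apart in Tnfsf13b, Birc3 and Traf2, and Traf1 has its widest spread among the cKO libraries, from 2071 to 3331.

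Levels can be compared between genes only after division by length. Per kilobase of merged exons in the GENCODE M21 annotation, Tnfrsf13c stood highest of the 10, with a WT mean of 3349 ± 216 normalised reads per kb and a cKO mean of 3483 ± 326 (SD, n = 3). Tnfrsf13b followed at 1712 ± 179 and 1801 ± 86.4 per kb, and Birc3 at 1372 ± 41.8 and 1551 ± 30.3. Well below these came Chuk, Birc2 and Traf3, with means over all 6 libraries of 641, 563 and 493 per kb. Traf2, Map3k14 and Traf1 followed at 349, 322 and 289. Tnfsf13b was far below all of these, at 1.51 ± 1.53 per kb over the 6 libraries.

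The order was mostly the same in each library. Tnfrsf13c exceeded Tnfrsf13b, Birc3 exceeded Chuk, Traf3 exceeded Traf2 and Traf2 exceeded Map3k14 with no overlap between the libraries' values. Between Tnfrsf13b and Birc3, between Chuk and Birc2, and between Birc2 and Traf3 the ranges overlapped across libraries, although the first of each pair was higher within all 6. Map3k14 and Traf1 did not separate: Map3k14 was higher per kb in 5 of 6 libraries and Traf1 in cKO replicate 1. Merged exons count every annotated isoform, so a gene with a long rare isoform reads low on this scale.

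**Figure D2:**
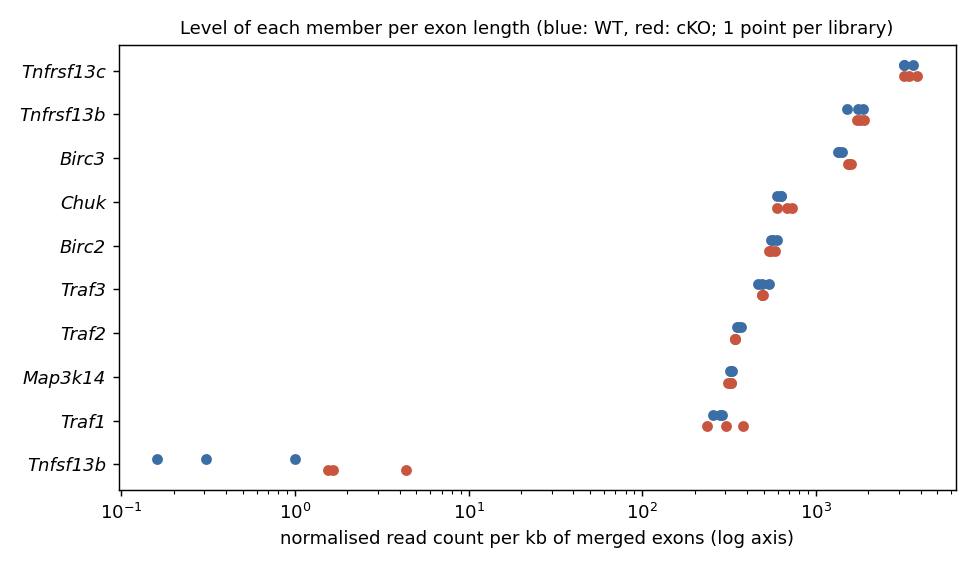
Normalised read count per kb of merged exons (horizontal axis, logarithmic) for the 10 genes, with 1 point per library in WT (blue) and cKO (red). Tnfrsf13c lies between 3197 and 3838 per kb, and Tnfsf13b between 0.16 and 4.36.

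The BAFF gene was the outlier of the set in level and in difference. Tnfsf13b (ENSMUSG00000031497) encodes a cytokine made mainly by myeloid and stromal cells. Its recovered reads, in replicate order, were 1, 2 and 7 for WT and 12, 12 and 29 for cKO. Every cKO library was above every WT library, and cKO replicate 3 held more reads than both other cKO libraries together. In the deposited unit the means were 3.35 ± 3.07 and 17.3 ± 10.9 normalised reads (SD, n = 3 each).

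The log2 difference of Tnfsf13b was 2.15 ± 0.59 (SE; limma adjusted p = 0.0433), on a scale that understates the change of low genes. The 10 WT reads against 53 cKO reads gave a ratio of reads per library total of 4.81. Its exact interval of 2.42 to 10.6 at 95% covers counting error only. Neither this interval nor the p-values given here allow for the selection of Tnfsf13b through its cKO values. The call rested on several libraries. Adjusted p rose to 0.145 or 0.0952 when WT replicate 1 or 2 was left out, and to 0.0588 or 0.169 when cKO replicate 1 or 3 was left out (range over the alternatives 0.0199 to 0.169), and the log2 difference was 1.70 to 2.69 when single libraries were left out. With a pseudocount of 5 it was 1.38 (adjusted p = 0.0483). A library of this depth holds so few reads of the transcript that each read moves its value visibly.

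Markers of other splenic cells, some of which make BAFF, were measured in the same libraries, and their part in the difference of Tnfsf13b was not tested. The monocyte and macrophage list (12 of 13 genes with a row; Timd4 had none) summed to 1957 to 3196 normalised reads in WT and 1612 to 2990 in cKO, with its highest value in WT replicate 2, where Tnfsf13b had 2 reads. In cKO replicate 3, the library with the most Tnfsf13b reads, that list stood at 1724. Of its 12 genes 0 were called, and they did not move as a block. Itgam, an integrin of myeloid cells, gave 56.0, 59.0 and 54.8 in WT and 88.3, 72.0 and 104 in cKO (limma adjusted p = 0.0647). It did not overlap between the groups and was highest in cKO replicate 3, as Tnfsf13b was. Cd68 gave 219 ± 22.8 and 277 ± 37.0 (adjusted p = 0.13), while C1qa gave 155 ± 65.4 and 90.2 ± 44.9 (adjusted p = 0.148). The neutrophil list (3 of 8 genes, with none for Ly6g, Elane, Mpo, Cxcr2 and Retnlg) ranged from 45.0 to 130 in WT and from 26.8 to 147 in cKO, and was lowest in cKO replicate 3. The dendritic cell list (6 of 8 genes, with none for Clec9a and Cd209a) ranged from 772 to 907 and from 851 to 1059. Of its 6 genes 1 was called. Zbtb46, a factor of conventional dendritic cells, rose from 49.4 ± 13.2 to 94.4 ± 7.82 (log2 difference 0.95, limma adjusted p = 0.0252). Siglech and Bst2 gave 0.72 and 0.27 without passing (limma adjusted p = 0.348 and 0.123), while Flt3, Itgax and Xcr1 gave -0.45, -0.13 and 0.06. Of 7 stromal and endothelial markers 2 were tested and 0 called. Cdh5 gave 46.1, 44.3 and 65.5 in WT and 60.6, 67.3 and 71.2 in cKO (adjusted p = 0.294), highest in cKO replicate 3, and Pecam1 gave 4678 ± 428 and 4877 ± 574. Col1a1, Col1a2, Pdgfrb, Cxcl13 and Ccl19 had no row. Without WT replicate 2 and cKO replicate 1, a choice made after seeing the data, the log2 difference of Tnfsf13b was 2.27 with an adjusted p of 0.096.

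**Figure D3:**
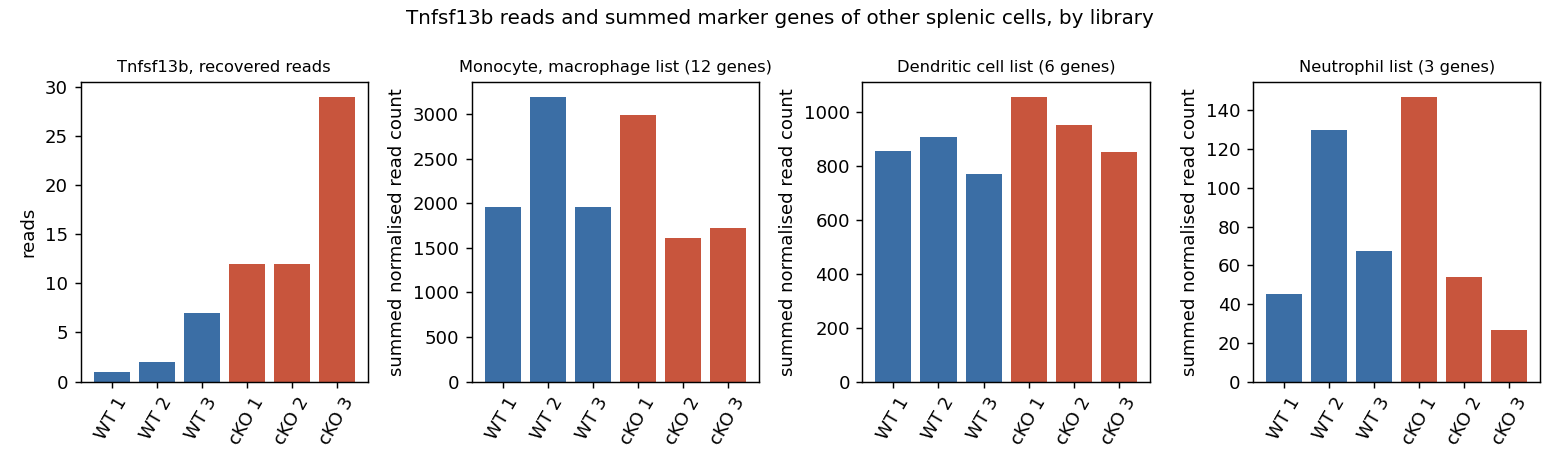
Recovered Tnfsf13b reads (left) and summed normalised read counts of monocyte and macrophage, dendritic cell and neutrophil marker genes (other panels) in each library, WT in blue and cKO in red, all axes from 0. Tnfsf13b is highest in cKO replicate 3 with 29 reads, while the monocyte and macrophage sum is highest in WT replicate 2 at 3196.

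The 2 BAFF receptor genes were abundant and were not called. Tnfrsf13c (ENSMUSG00000068105) encodes BAFF-R, the receptor that carries the survival signal. Its normalised reads, in replicate order, were 7370, 6606 and 6603 for WT and 6547, 7860 and 6993 for cKO. The lowest and the highest of the 6 values were both in cKO libraries. The log2 difference was 0.05 ± 0.07 (limma adjusted p = 0.686), a ratio of 1.04 with a 95% interval of 0.928 to 1.16. A fall of more than 7.2% or a rise of more than 16.2% lay outside that interval.

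Tnfrsf13b (ENSMUSG00000010142) encodes TACI, which binds BAFF and the related ligand APRIL and is prominent on marginal zone cells. Its values were 4297, 4979 and 5286 in WT and 5106, 4861 and 5351 in cKO, in replicate order. WT replicate 1 was the low library and the other 5 lay within 4861 to 5351. The log2 difference of 0.08 ± 0.08 did not pass (limma adjusted p = 0.554), with a ratio of 1.06 and an interval of 0.94 to 1.18. Without WT replicate 1 the difference was -0.0078.

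Within a library, the ratio of Tnfrsf13b to Tnfrsf13c does not depend on how the libraries were scaled. It was 0.583, 0.754 and 0.801 in WT and 0.78, 0.619 and 0.765 in cKO, in replicate order, from counts not divided by length. The groups overlapped (two-sided exact permutation p = 0.8, and 0.9 adjusted over the 3 ratios tested, where 0.1 is the smallest unadjusted p that 3 against 3 allows). The third receptor of the family, Tnfrsf17 (BCMA, of plasma cells), and the APRIL gene Tnfsf13 had no row and were not measured.

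The adaptor genes differed little. Traf3 (ENSMUSG00000021277), whose product recruits NIK to the degrading complex, gave 3960, 3567 and 3420 normalised reads in WT and 3574, 3610 and 3625 in cKO. The WT libraries spanned the cKO values completely. The log2 difference was -0.02 ± 0.06 (limma adjusted p = 0.903), with a ratio of 0.989 and an interval of 0.901 to 1.09. It turned to 0.04 without WT replicate 1.

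Traf2 (ENSMUSG00000026942), the adaptor that brings the cIAP proteins to TRAF3, gave 1815, 1779 and 1879 in WT and 1731, 1734 and 1733 in cKO. The groups did not overlap, and the cKO values had a coefficient of variation of 0.0864%, against 2.78% in WT. With 1942, 1830 and 1679 recovered reads in the cKO libraries, counting error alone exceeds 0.0864%. The closeness of the cKO values is therefore no measure of their spread. The log2 difference was -0.07 ± 0.05 and did not pass (limma adjusted p = 0.406). A fall of more than 12.4% lay outside its interval.

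Traf1 (ENSMUSG00000026875), an adaptor induced by NF-κB that pairs with TRAF2, varied most among the abundant members. It gave 2533, 2470 and 2245 in WT and 3331, 2071 and 2658 in cKO. The cKO libraries held both the highest and the lowest value, a coefficient of variation of 23.5% against 6.27% in WT. Its spread within groups on the log2 scale (0.251) exceeded that of 98.2% of the 4560 genes with a mean of at least 1000. The log2 difference was 0.13 ± 0.13 (limma adjusted p = 0.583). It was 0.30 without cKO replicate 2 (adjusted p = 0.0569) and -0.04 without cKO replicate 1 (range of adjusted p over the alternatives 0.0569 to 0.927). These are the libraries with the follicular marker and macrophage marker values given above, and their part in the spread of Traf1 was not tested.

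The kinases of the pathway were not called either. Map3k14 (ENSMUSG00000020941) encodes NIK. Its values of 2096, 2128 and 2155 in WT and 2033, 2119 and 2122 in cKO were among the least variable of the abundant genes, with a within-group spread of 0.0284 that exceeded that of 4.08% of the 4560. The log2 difference of -0.02 ± 0.05 (limma adjusted p = 0.812) had a ratio interval of 0.908 to 1.06. The ratio of Map3k14 to Traf3 in each library was 0.529, 0.597 and 0.63 in WT and 0.569, 0.587 and 0.585 in cKO. The cKO values lay inside the WT range (two-sided exact permutation p = 0.9, and 0.9 adjusted).

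Chuk (ENSMUSG00000025199) encodes IKKα, the kinase that NIK activates. It gave 3186, 3023 and 3201 in WT and 3677, 3018 and 3469 in cKO. cKO replicates 1 and 3 were above every WT library, while cKO replicate 2 was the lowest of the 6. The log2 difference was 0.11 ± 0.07 (limma adjusted p = 0.371), and 0.19 without cKO replicate 2 (adjusted p = 0.0651, in a range of 0.0651 to 0.916 over the alternatives). cKO replicate 2 was also the lowest cKO library for Traf1, Birc2 and Tnfrsf13b and the highest for Tnfrsf13c and Birc3.

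Neither of the cIAP genes, which are neighbours on a chromosome, was called. Birc3 (ENSMUSG00000032000), which encodes cIAP2 and is itself an NF-κB target, gave 6691, 7102 and 6832 in WT and 7772, 7918 and 7615 in cKO. All 3 cKO libraries were above all 3 WT libraries, at a ratio of 1.13 with an interval of 1.05 to 1.22. The log2 difference was 0.18 ± 0.05 and the limma adjusted p was 0.0503, above the threshold. It fell below in 3 alternatives, with a filter on a mean of at least 50 (0.0434), with DESeq2 on the recovered reads (0.036) and with the replicate number as a block (0.0498), in a range of 0.036 to 0.152. Of the 50-base words in the annotated transcripts of Birc3, 7.38% also occurred in those of other genes.

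Birc2 (ENSMUSG00000057367), which encodes cIAP1, gave 2728, 2574 and 2522 in WT and 2657, 2456 and 2534 in cKO. The groups overlapped, with a log2 difference of -0.03 ± 0.06 (limma adjusted p = 0.762) and a ratio interval of 0.897 to 1.07. The ratio of Birc3 to Birc2 was 2.45, 2.76 and 2.71 in WT and 2.93, 3.22 and 3.01 in cKO. Each cKO library was above each WT library, a log2 difference of 0.21. The two-sided exact permutation p was 0.1, the smallest this design allows, and 0.3 adjusted over the 3 ratios.

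**Figure D4:**
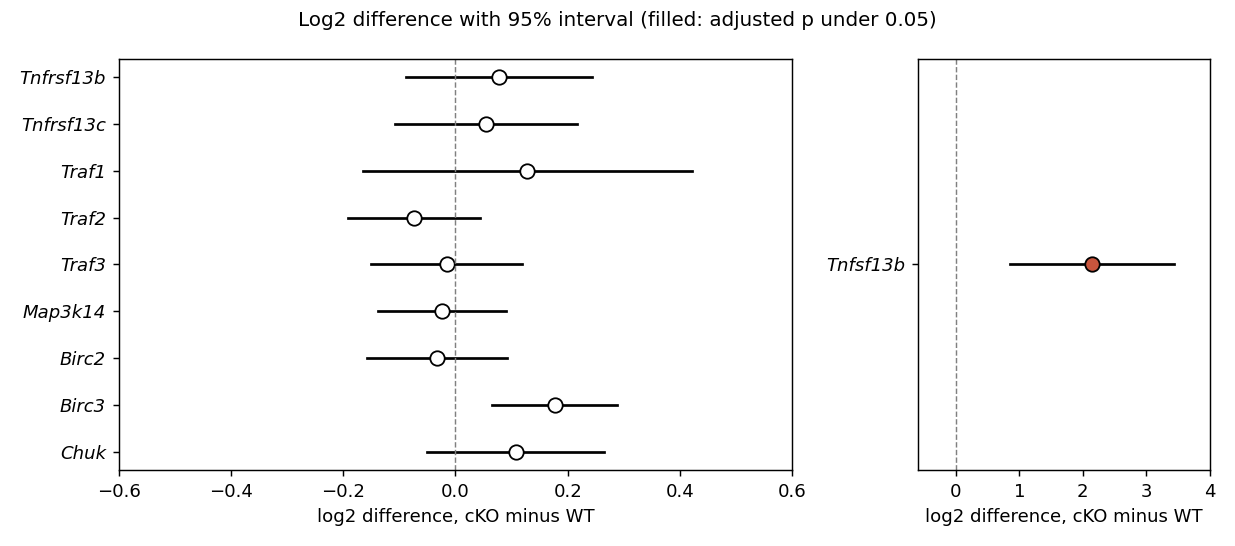
Log2 difference of cKO minus WT (horizontal axis) with its 95% interval from limma for 9 genes (left) and for Tnfsf13b on a wider axis (right), a filled point marking an adjusted p under 0.05. The interval of Birc3 lies above 0 with an adjusted p of 0.0503, and the intervals of the 8 other genes on the left include 0.

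The genes most like a member in pattern were sought for the 3 members with the smallest p, by Pearson correlation of log2 values over the 6 libraries, with a minimum mean of 100 for the genes compared. This is a description over few points that share their libraries and the group difference. Birc3 was nearest to Sdcbp (0.998) and Rps25 (0.997), which rose by 0.27 and 0.29 (limma adjusted p = 0.0175 and 0.0151). Tnfsf13b was nearest to Apopt1 (0.994) and Dcp1a (0.993), and Chuk to Ube4a (0.994) and Gpt (0.993), none of which was called. Correlations over 0.95 were common, with 254 genes for Birc3, 65 for Tnfsf13b and 45 for Chuk.

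Around the members, 50 other genes of the pathway were listed, and 43 were tested. Of these, 0 rose and 6 fell, 14% of the genes tested, beside the 4.97% of all genes that fell. WT and cKO were fully separate for 32.6% of the 43, beside 31.6% of all genes, and their median log2 difference was -0.02. The genes that fell lay in all 4 lists.

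Of 8 other ligands and receptors 1 fell and 0 rose. This was Cd27, a receptor of the TNF family that signals through TRAF proteins, at 318, 316 and 316 normalised reads in WT and 216, 253 and 244 in cKO (log2 difference -0.42 ± 0.10, limma adjusted p = 0.0273). All cKO values were lower, and the WT values were nearly equal. Ltb, which encodes lymphotoxin β and had the highest mean of the list, gave 9130 ± 508 and 9112 ± 668 (adjusted p = 0.98). Among 17 other adaptors, ubiquitin enzymes and kinases, 1 fell and 0 rose. Ikbkb encodes IKKβ, the kinase of the classical NF-κB pathway and partner of IKKα. It gave 8186, 7284 and 7324 in WT and 6280, 6758 and 6314 in cKO (-0.23 ± 0.06, adjusted p = 0.0366). Cyld, a deubiquitinase that restrains NF-κB, gave 4658 ± 50.9 and 5016 ± 255 (adjusted p = 0.234).

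Among the 5 NF-κB subunit genes Rel fell and none rose. Rel encodes c-Rel, a subunit of the classical pathway, and gave 10644, 8395 and 8807 in WT and 6860, 7033 and 6508 in cKO. Every cKO library was below every WT library (-0.44 ± 0.08, limma adjusted p = 0.00964). The subunit genes of the alternative pathway were not called. Nfkb2 gave 6950 ± 737 and 7154 ± 372, a ratio interval of 0.918 to 1.16. Relb, named here outside the rule for named genes, gave 2011 ± 134 and 1994 ± 137, an interval of 0.892 to 1.10.

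Of 13 genes listed as targets of BAFF or NF-κB in B cells, 3 fell and 0 rose, with a list median of -0.21. Tnfaip3, which encodes a ubiquitin-editing inhibitor of the classical pathway, went from 2536 ± 198 to 1804 ± 124 (-0.49 ± 0.07, limma adjusted p = 0.0034). Icosl, the ligand of the T cell costimulator ICOS, gave 6460, 6400 and 6392 in WT and 5225, 5805 and 4913 in cKO (-0.28 ± 0.06, adjusted p = 0.0232). Bcl2a1b, a survival gene of the BCL2 family, gave 593, 565 and 737 in WT and 448, 484 and 505 in cKO (-0.39 ± 0.10, adjusted p = 0.0402). Its count is uncertain, since 79.2% of its 50-base words occur in other genes, mostly its copies, and Bcl2a1d gave a log2 difference of -0.02. Cr2, the complement receptor that marks marginal zone cells, was not called, at 65812 ± 2121 and 69586 ± 8713 (adjusted p = 0.662). Fcer2a, the follicular marker CD23, gave 6186 ± 523 and 4829 ± 2457 and was highest in cKO replicate 2, and it was called only when that library was left out.

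Some of these calls were lost when a library was left out. Rel and Tnfaip3 were called in all 16 alternatives run. Without WT replicate 1, WT replicate 3 or cKO replicate 3 only these 2 of the 6 remained. Cd27 then gave adjusted p values of 0.0906, 0.093 and 0.0722, Ikbkb 0.111, 0.0831 and 0.127, Icosl 0.0767, 0.0823 and 0.096, and Bcl2a1b 0.0862, 0.134 and 0.0783 (ranges over the alternatives 0.0236 to 0.117, 0.0113 to 0.127, 0.00328 to 0.096 and 0.0123 to 0.134). Cd27 and Icosl were also lost without WT replicate 2 (0.0626 and 0.0519), Bcl2a1b without cKO replicate 2 (0.0517), and all 4 without cKO replicate 1 (0.0731, 0.0555, 0.0957 and, for Ikbkb, 0.0917). The log2 differences kept their sign, from -0.35 to -0.47 for Cd27, -0.18 to -0.27 for Ikbkb, -0.22 to -0.34 for Icosl and -0.27 to -0.47 for Bcl2a1b over the alternatives. Calls over the whole table fell as well, to 510, 497 and 531 without WT replicate 1, WT replicate 3 and cKO replicate 3.

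Markers of B cell subsets moved in the same comparison. Of 10 marginal zone markers 6 rose and 0 fell, Asb2 by most (1576 ± 146 to 3947 ± 1054, log2 difference 1.29, limma adjusted p = 0.00126). Of 6 follicular markers 3 fell, and of 6 plasma cell markers 2 fell, and 0 rose in either list. Of all genes tested 5.08% rose and 4.97% fell. Cxcr5 of the follicular list (0.26, limma adjusted p = 0.0547) and Prdm1 of the plasma cell list (0.11, limma adjusted p = 0.699) went the other way without passing. So did Notch2 (-0.11, limma adjusted p = 0.254) and S1pr3 (-0.065, limma adjusted p = 0.798) of the marginal zone list. These lists were chosen with earlier results of these data known. The part of these marker differences in the falls of the pathway genes was not tested. Of 19 immediate early genes tested, 11 fell and 0 rose, with sums of 86530 to 109570 in WT and 69074 to 69979 in cKO, and their part in the falls of Rel and Tnfaip3 was not tested.

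**Figure D5:**
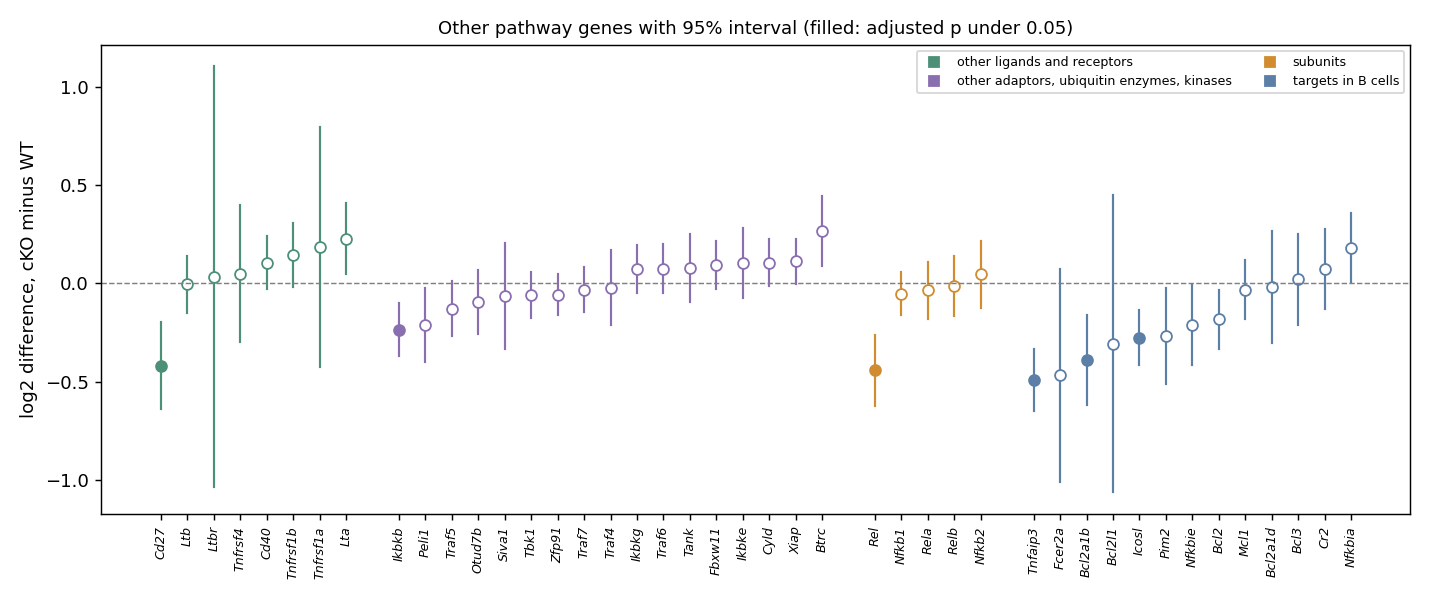
Log2 difference of cKO minus WT (vertical axis) with 95% intervals from limma for the 43 other pathway genes, coloured by list and ordered by value within it, with filled points for an adjusted p under 0.05. The 6 filled points, Cd27, Ikbkb, Rel, Tnfaip3, Bcl2a1b and Icosl, all lie below 0.

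Promoter sequences were searched for the κB consensus, the sequence class that NF-κB dimers bind, on both strands of the 250 bases before each annotated start in RefSeq (build GRCm38.p6). All 10 members matched an entry by symbol, and 1 of them, Traf3, held the consensus, beside 8.24% of all 27018 genes. Of the 6 called pathway genes, Rel, Tnfaip3 and Icosl held it, and Ikbkb was not matched. The consensus was also in uncalled genes of the pathway, such as Nfkb2, Nfkbia, Nfkbie, Ltb and Cyld. Of the 50 other pathway genes listed, 43 had an entry, not the same 43 as those tested, and 11 of them (25.6%) held it. A list of targets of BAFF or NF-κB was among those searched, so a share above that of all genes was partly built into the choice. The windows below are those of Traf3, the member with a match, and of the called genes with a match, so that a reader can compare their letters. Each is 30 bases, 5′ to 3′ on the gene's strand, with the consensus in capitals. The matches in Rel (a second one overlaps it by all but 1 base) and the distal one in Tnfaip3 read as the consensus on both strands. The match in Traf3 reads as the consensus on the printed strand. Those in Icosl and the proximal one in Tnfaip3 read as the consensus only on the opposite strand, so their capitals are its reverse complement. Traf3 lay at chr12:111166340-111166369 (plus strand), Rel at chr11:23771042-23771071 (minus), the proximal and distal windows of Tnfaip3 at chr10:19015411-19015440 and chr10:19015516-19015545 (minus) and Icosl at chr10:78069247-78069276 (plus).
Traf3: cgcgcgcccaggcggcccgcGGGGATTTCC
Rel: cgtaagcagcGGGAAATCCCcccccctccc
Tnfaip3 proximal: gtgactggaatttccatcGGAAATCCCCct
Tnfaip3 distal: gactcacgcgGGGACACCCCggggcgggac
Icosl: gagcggaggcGGAGCTCCCCgcctccaacc

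The match in Traf3 ended at the last base before its start, and Traf3 was one of the members with the smallest differences. The promoters of Birc3, Traf1 and Tnfsf13b held no match in this window. A match describes the letters and is neither a binding site nor a cause, and the absence of one says nothing about sites elsewhere.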

How the data were processed

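The submitters' processing notes name STAR 2.5.2b, Trimmomatic 0.36, bcl2fastq 2.17 and build mm9. How reads were counted and normalized, on which annotation and with what strand setting, is not given in the sources used here. The file deposited by the authors holds a normalized signal for every gene. Its values behave as whole reads over a library factor: 100% were whole multiples of 1 read within 0.02 of a read. 1 read was worth 0.891 to 1.10, and the smallest value in cKO replicate 1 stood for 2 reads. No gene of the table had fewer than 61 reads over the 6 libraries.

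Symbols came from GENCODE M21, which named 14808 identifiers. The fit was limma 3.58.1 in R 4.3.3 (eBayes with a trend, two-sided, genotype the only term) on log2(value + 1), for 14855 genes with a mean of at least 10. It was tested on simulated data, as were edgeR 4.0.16 and DESeq2 1.42.0, run on recovered reads as alternatives. Other alternatives changed the pseudocount, filter, scaling, moderation, replicate block and libraries. "Rose" and "fell" mean an adjusted p under 0.05. A log2 difference is given ± its standard error. The members and lists were chosen with earlier results of these data known. Outside the members, the named genes were every called gene and the most abundant uncalled gene of each pathway list, and the 2 genes nearest in pattern to each of the 3 members with the smallest p. Other genes named (such as Relb, Fcer2a, Btrc, Asb2 and the markers beside Tnfsf13b) were chosen after their values were seen. In exons Map3k14 overlaps 1700028N14Rik (2.06% of bases) and Nfkb2 overlaps Psd (6.52%), so without a stated strand setting some of their reads are uncertain.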

Additional observations from a re-analysis of the deposited data

How the results depend on the processing

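The members called were 0 or 1 when single libraries were left out, and 0 without WT replicate 2 and cKO replicate 1 together (added after seeing the data). Which gene it was changed: Tnfsf13b in most settings, Birc3 with DESeq2 and with a filter on a mean of at least 50, where Tnfsf13b was not tested. DESeq2 gave Tnfsf13b no adjusted p (unadjusted p = 0.00314). Between WT and cKO libraries of the same number, the correlations of deviations were -0.0745, -0.02 and 0.147 for replicates 1, 2 and 3. Between libraries of different numbers they ran from -0.207 to 0.196. With so few libraries this cannot decide whether the replicate numbers pair them. With the replicate block 2 members were called, Tnfsf13b and Birc3, and 7 other pathway genes, with Btrc higher in cKO besides the 6. Btrc was also called, higher in cKO, with DESeq2, with robust moderation and without cKO replicate 1. In the main fit its limma adjusted p was 0.0593.

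With libraries left out, pathway genes called ranged from 2 to 8 and genes called over the whole table from 497 to 1730 (510 without WT replicate 1, 497 without WT replicate 3, 927 and 531 without cKO replicates 1 and 3, 876 without the pair). Small differences changed sign there: Tnfrsf13b ranged from -0.0078 to 0.14, Tnfrsf13c from -0.018 to 0.11, Traf1 from -0.041 to 0.30, Traf3 from -0.061 to 0.045 and Birc2 from -0.072 to 0.00022 in log2 difference. The log2 ratio of Tnfrsf13b to Tnfrsf13c ranged from -0.11 to 0.13 and that of Map3k14 to Traf3 from -0.079 to 0.046. The cause was not tested, beyond the loss of 1 or 2 libraries. Rescaling without immunoglobulin genes moved the median of all genes to -0.015 and turned no member. Depth limits Tnfsf13b, with 10 reads in WT and 53 in cKO.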
